A study of Mus musculus with 12 samples.

Results

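The genes described here belong to the hypoxia-inducible factor (HIF) pathway but lie outside glycolysis, and they were followed in C3H/10T1/2 cells, a mouse mesenchymal progenitor line that the sample labels write as CH310T1/2. The list holds 10 of the 56748 genes in the count table, namely Hif1a, Egln1, Egln3, Pdk1, Bnip3, Higd1a, Ak4, Ankrd37, Ndrg1 and Kdm3a, and 9 of these were among the 16465 genes with enough reads to be tested. The genes were chosen by name, with earlier results of these same counts known, and no threshold or value is given with the list. Which genes changed is therefore a description of these 12 libraries and not independent evidence about the pathway.

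Wild-type cells were deprived of serum, kept for 1 h in suspension, and plated for 18 h on hydrogels of 12 kPa stiffness. The suspension medium held 0.5% serum by the labels and none by the published methods. The gels carried a coat of type I collagen (0.05 mg/ml) that was polymerized alone (col1), with 30 nM recombinant aortic carboxypeptidase-like protein, a secreted matrix protein that binds collagen (col1-ACLP), or with the same protein in cells that also received SB431542, an inhibitor of the TGFβ receptor kinase ALK5 (col1-ACLP+SB). Each group had 4 libraries of poly(A) RNA from this 1 line, described in the publication as biological replicates, while the labels give only replicate numbers. No group received the inhibitor on col1 without ACLP, so the effect of SB431542 by itself cannot be told apart from its effect on cells on ACLP. The labels name no oxygen setting for any group.

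HIF is a transcription factor made of an oxygen-regulated alpha subunit and a stable partner, ARNT. When oxygen is sufficient, prolyl hydroxylases of the EGLN family modify the alpha subunit, which is then recognized by VHL and degraded, so that the amount of HIF protein is set mainly after transcription and is not read by Hif1a mRNA. When the alpha subunit is stable, HIF binds short DNA motifs near its targets, which include genes that shift pyruvate away from mitochondria, remove mitochondria, and, as feedback, encode the hydroxylases themselves.

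The windows before the start sites of Pdk1, Bnip3 and Ak4 are shown because these genes were among the 4 that passed the test with a log2 fold change beyond 0.58 in both comparisons with col1, and their RefSeq starts lay within 13 bases of the gene start in the count table. Each line holds the 250 bases before the RefSeq start, 5′ to 3′ on the strand of the gene, with every match to ACGTG or GCGTG on either strand in capitals, the core letters of the hypoxia response element to which HIF binds. The sequences come from the RefSeq promoter table of build GRCm38.p6 and were placed on GRCm39 by exact match.
Pdk1, chr2:71703318-71703567, plus strand: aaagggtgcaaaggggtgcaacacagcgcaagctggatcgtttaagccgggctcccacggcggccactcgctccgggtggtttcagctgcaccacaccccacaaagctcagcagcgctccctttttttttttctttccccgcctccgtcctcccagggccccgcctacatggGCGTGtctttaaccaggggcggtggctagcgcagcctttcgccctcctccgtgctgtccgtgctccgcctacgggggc
Bnip3, chr7:138511236-138511485, minus strand: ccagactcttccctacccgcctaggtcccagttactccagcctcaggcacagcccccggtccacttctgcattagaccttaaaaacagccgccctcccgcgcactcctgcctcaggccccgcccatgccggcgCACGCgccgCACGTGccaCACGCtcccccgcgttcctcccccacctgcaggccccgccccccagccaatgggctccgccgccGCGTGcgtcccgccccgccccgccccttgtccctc
Ak4, chr4:101276236-101276485, plus strand: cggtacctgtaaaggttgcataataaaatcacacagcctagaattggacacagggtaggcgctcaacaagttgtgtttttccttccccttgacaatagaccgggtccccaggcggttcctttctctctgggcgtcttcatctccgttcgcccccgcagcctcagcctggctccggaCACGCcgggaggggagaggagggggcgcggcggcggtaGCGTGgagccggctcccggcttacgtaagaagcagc

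The Pdk1 window held 1 match, beginning 78 bases before the start. The Ak4 window held 2 matches, beginning 74 and 36 bases before it. The Bnip3 window held 5 matches between 117 and 35 bases before the start, counting the palindrome CACGTG, which is also an E-box, once on each strand. Among the 9 genes with an entry in the table (Ndrg1 had none), the window nearest the gene start of the count table held at least 1 match in each, from 1 in Pdk1, Kdm3a and Egln3 to 5 in Bnip3. Several starts are listed for Ak4, Kdm3a and Pdk1, and over all 15 windows of the 9 genes 12 held a match (80.0%), against 38.6% of all 32851 windows of the same length. The 3 windows without one were 2 of Kdm3a and 1 of Pdk1, and windows of 1 gene can overlap. A match to 5 letters is frequent and is not a binding site, and the windows of Kdm3a, which differed little between the groups, and of Egln3, which had almost no reads, held matches as well.

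On col1-ACLP, transcripts for the alpha subunit of HIF-1, for its main oxygen sensor and for 4 mitochondrial or metabolic targets were more abundant than on col1. The 3 other tested genes did not pass the test. In the quasi-likelihood test of edgeR, adjusted over all genes by Benjamini-Hochberg, 6 of the 9 tested genes rose at an adjusted p under 0.05 (Hif1a, Egln1, Pdk1, Bnip3, Higd1a and Ak4) and 0 fell. Over all genes tested, 9.52% were higher and 8.41% lower by the same rule in that comparison. Of the 9 tested genes, 4 (Pdk1, Bnip3, Higd1a and Ak4) passed the test with a rise in log2 fold change beyond 0.58, against 2.61% of all genes tested. In col1-ACLP+SB against col1, 7 genes rose, the same 6 and Kdm3a, and 0 fell, where 4.60% of all genes were higher and 4.54% lower. The same 4 of the 9 tested genes passed the test with a rise beyond 0.58, against 1.27% of all genes tested. The median log2 fold change of the 9 genes was 0.81 with ACLP alone and 0.93 with ACLP and the inhibitor, beside -0.0099 and 0.0046 over all tested genes. Because the genes were named with results known, these counts are printed beside the background and nothing is read from the contrast. Both comparisons share the col1 libraries.

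**Figure D1:**
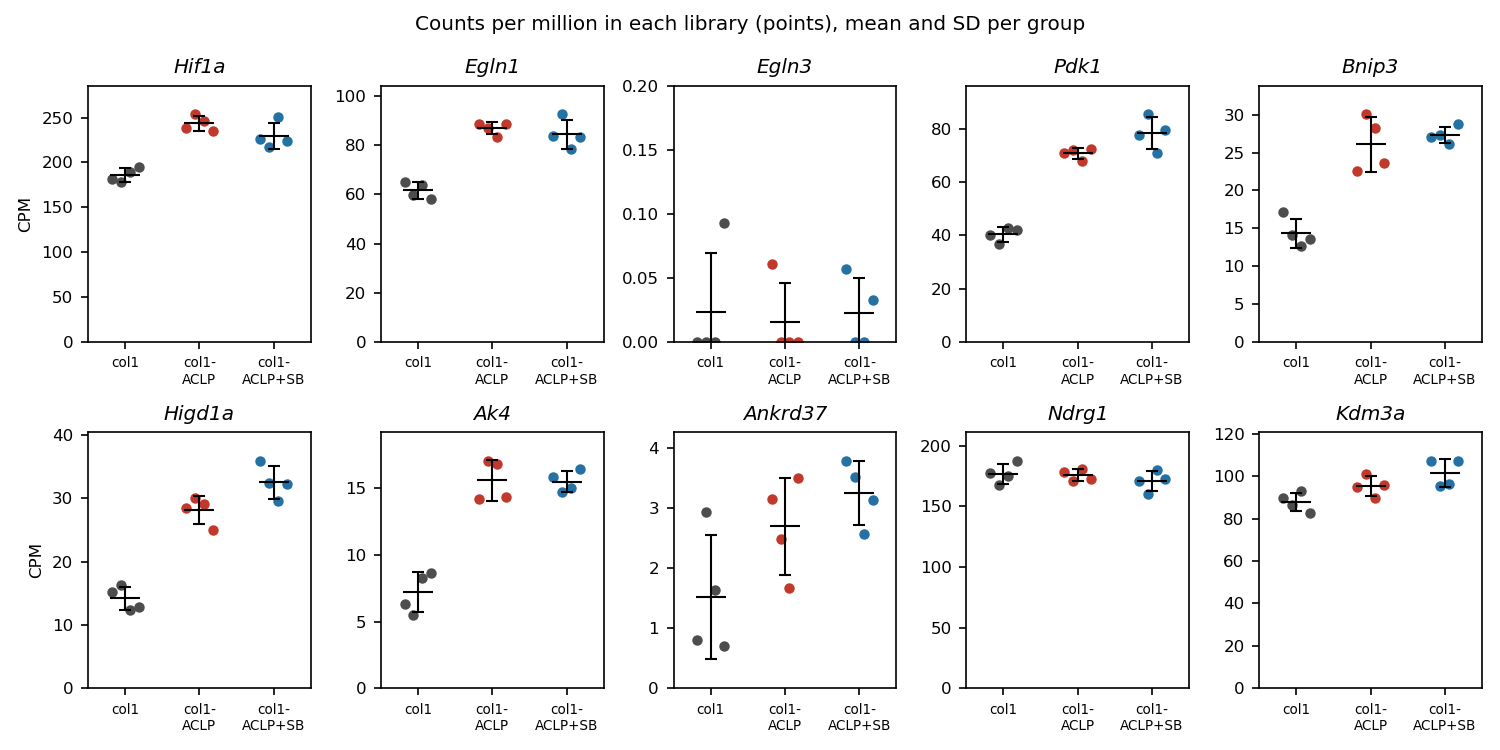
Reads per 1000000 reads of a library (CPM, scaled by TMM) of the 10 genes in each of the 12 libraries, with 1 panel per gene, 1 point per library, the mean as a bar and the SD as whiskers, and an axis of its own for each gene starting at 0. For Hif1a, Egln1, Pdk1, Bnip3, Higd1a and Ak4 all 4 libraries of both ACLP groups lie above all 4 col1 libraries, and Egln3 stays below 0.1 CPM.

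Hif1a, on chromosome 12, encodes the alpha subunit of HIF-1. Its level in CPM was 181, 178, 189 and 195 in the col1 libraries, 239, 254, 247 and 236 in the col1-ACLP libraries, and 226, 217, 250 and 224 in the col1-ACLP+SB libraries. All libraries with ACLP lay above all col1 libraries, and both ACLP groups overlapped each other. The log2 fold change against col1 was 0.39 (SE 0.0507, adjusted p = 2.06e-06) on col1-ACLP and 0.31 (SE 0.0507, adjusted p = 0.000127) on col1-ACLP+SB, a rise of 1.31-fold and 1.24-fold. The antisense gene Gm15283 spans the whole Hif1a gene on the other strand, and whether strand was used in counting is not given in the sources used here. Gm15283 had 1.12 to 2.12 CPM. In bulk libraries a change in the share of cells that express a gene and a change in RNA per cell cannot be told apart, here and for each gene that follows.

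Epas1 encodes the alpha subunit of HIF-2 and went the other way. It had 32.5, 27.9, 32.8 and 31.7 CPM in the col1 group, 16.3, 16.4, 14.2 and 14.1 CPM in col1-ACLP, and 16.1, 15.9, 14.9 and 15.2 CPM in col1-ACLP+SB. No library with ACLP reached the lowest col1 library, and the log2 fold change was -1.03 (SE 0.0922, adjusted p = 4.40e-09) on col1-ACLP and -1.01 (SE 0.0918, adjusted p = 1.30e-08) on col1-ACLP+SB. Epas1 was the 1 gene that changed among 12 tested genes of the HIF subunits, hydroxylases, VHL complex and coactivators outside the 10 genes above, of which 0 were higher and 1 was lower in both comparisons. The others included Arnt, the shared partner subunit, with a log2 fold change of -0.030 on col1-ACLP, Vhl, the recognition subunit of the ligase, with 0.00086, and Hif1an, the asparaginyl hydroxylase of HIF, with 0.13, all short of the threshold. Hif3a, the gene of another alpha subunit, had 0 reads in every library.

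Egln1, on chromosome 8, encodes PHD2, the main HIF prolyl hydroxylase in most cells and itself a HIF target. It had 65.2, 59.7, 63.7 and 58.0 CPM in the col1 group, 88.8, 87.2, 83.5 and 88.9 CPM in col1-ACLP, and 83.7, 92.6, 78.5 and 83.6 CPM in col1-ACLP+SB. The lowest library with ACLP lay above the highest col1 library. Egln1 rose 1.41-fold on col1-ACLP (log2 fold change 0.50, SE 0.0606, adjusted p = 7.50e-07) and 1.37-fold on col1-ACLP+SB (0.46, SE 0.0605, adjusted p = 5.92e-06).

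The other sensors were not called. Egln2, which encodes PHD1, averaged 64.9 ± 3.01 CPM (SD, n = 4) in col1, 62.0 ± 4.45 in col1-ACLP and 63.6 ± 6.54 when the inhibitor was added, and its log2 fold change of -0.066 on col1-ACLP did not pass the test (adjusted p = 0.623). Egln3, which encodes PHD3 and is a strong HIF target in many cells, had 9 reads in all 12 libraries together. They were 4 reads in col1 replicate 4, 2 in col1-ACLP replicate 1, 2 in col1-ACLP+SB replicate 1 and 1 in col1-ACLP+SB replicate 4, and the other 8 libraries had 0. A count of 0 allows up to 3 reads, counting error only, so that a difference in Egln3 was not detectable at this depth and no test was made.

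**Figure D2:**
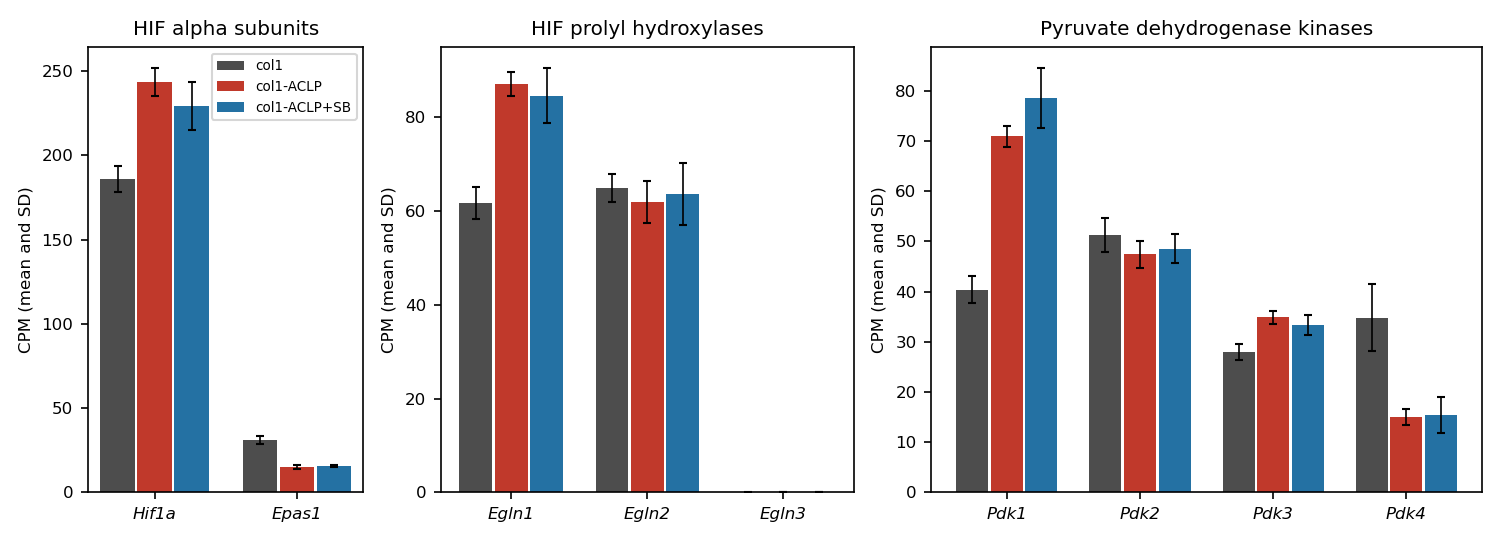
Mean CPM and SD (n = 4 libraries) by group for the HIF alpha subunit genes, the HIF prolyl hydroxylase genes and the pyruvate dehydrogenase kinase genes. Bars compare groups within a gene and not genes with each other, since CPM is not divided by gene length. Hif1a, Egln1 and Pdk1 are taller with ACLP, Epas1 and Pdk4 are shorter, and Egln3 stays near 0.

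Pdk1, on chromosome 2, encodes a kinase that inactivates pyruvate dehydrogenase and so keeps pyruvate out of the citric acid cycle. Its libraries had 40.1, 36.7, 42.6 and 42.0 CPM in the col1 group, 70.8, 72.3, 68.1 and 72.7 CPM in col1-ACLP, and 77.9, 85.5, 71.0 and 79.8 CPM in col1-ACLP+SB. The groups with ACLP lay well above every col1 library, and the 3 highest values were from col1-ACLP+SB. Against col1 the log2 fold change was 0.81 (SE 0.0666, adjusted p = 8.50e-10) with ACLP and 0.96 (SE 0.0665, adjusted p = 1.11e-10) on col1-ACLP+SB.

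The other kinases of the family gave mixed values. Pdk4, the isoform tied to fatty acid use, fell by 1.21 on the log2 scale on col1-ACLP (SE 0.142, adjusted p = 4.50e-07), from 34.8 ± 6.62 to 15.0 ± 1.59 CPM, and by 1.17 on col1-ACLP+SB (SE 0.142, adjusted p = 1.43e-06). Pdk3 rose by less, with a log2 fold change of 0.32 on col1-ACLP (adjusted p = 0.00309) and 0.25 on col1-ACLP+SB (adjusted p = 0.0307). Pdk2 had -0.11 on col1-ACLP and did not pass the test (adjusted p = 0.314). Of the 7 genes of the pyruvate dehydrogenase complex and its phosphatases, the targets and opponents of these kinases, 0 were higher and 0 lower in any of the 3 comparisons. Their median log2 fold change on col1-ACLP was 0.10. Over all genes tested, 9.52% were higher and 8.41% lower on col1-ACLP.

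Bnip3, on chromosome 7, encodes a mitochondrial outer membrane protein that directs mitochondria to autophagy. It had 17.1, 14.1, 12.7 and 13.6 CPM in the col1 group, 22.5, 30.0, 28.2 and 23.6 CPM in col1-ACLP, and 27.1, 27.4, 26.2 and 28.7 CPM in col1-ACLP+SB. The lowest library with ACLP was col1-ACLP replicate 1, still above the highest col1 library. Bnip3 rose by a log2 fold change of 0.86 (SE 0.106, adjusted p = 9.10e-07) on col1-ACLP and 0.93 (SE 0.106, adjusted p = 5.66e-07) on col1-ACLP+SB. Its close relative Bnip3l, another mitophagy receptor, had a log2 fold change of 0.024 on col1-ACLP and did not pass the test (adjusted p = 0.865). The Bnip3 counts are uncertain in level, because 98.9% of its main transcript has a match of at least 150 bases and 95% identity elsewhere in GRCm39, the longest of 2709 bases on chromosome 14, and how reads with several places were counted is not given in the sources used here. Gm32857, which lies over that longest match, had 0 to 22 reads per library, and ENSMUSG00000115801, over a match of 2701 bases, had 4 to 47.

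Higd1a, on chromosome 9, encodes an inner mitochondrial membrane protein tied to respiratory chain complexes. The col1 libraries had 15.2, 16.2, 12.4 and 12.8 CPM, the col1-ACLP libraries 28.4, 30.1, 29.1 and 25.0 CPM, and the col1-ACLP+SB libraries 35.9, 32.4, 29.5 and 32.2 CPM. Higd1a was higher, with no overlap between col1 and either ACLP group. The fold was 1.98 on col1-ACLP (log2 fold change 0.99, SE 0.0990, adjusted p = 3.10e-08) and 2.29 on col1-ACLP+SB (1.20 on the log2 scale, SE 0.0987, adjusted p = 2.63e-09). Its relative Higd2a had 0.024 on col1-ACLP (adjusted p = 0.901).

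Ak4, on chromosome 4, encodes a mitochondrial adenylate kinase. It had 6.34, 5.53, 8.25 and 8.66 CPM in the col1 group, 14.2, 17.0, 16.8 and 14.3 CPM in col1-ACLP, and 15.8, 14.7, 15.0 and 16.4 CPM in col1-ACLP+SB. Every library with ACLP exceeded every col1 library. Ak4 rose 2.17-fold on col1-ACLP (log2 fold change 1.11, SE 0.134, adjusted p = 6.48e-07), the highest of the 9 genes in that comparison, and 2.15-fold on col1-ACLP+SB (1.11, SE 0.134, adjusted p = 1.41e-06). Among the other adenylate kinase genes Ak3, of the mitochondrial matrix, had a log2 fold change of 0.22 on col1-ACLP (adjusted p = 0.00294), while Ak1 and Ak5 did not pass the test. A stretch of 1632 bases of the Ak4 transcript has a copy of 99.5% identity in the pseudogene Ak3l2-ps, which had 11 to 43 reads per library. Matches of this kind covered 20.6% of the Higd1a transcript and 20.4% of the Egln1 transcript, and none was found for Hif1a, Pdk1, Ndrg1, Kdm3a, Ankrd37 or Egln3.

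**Figure D3:**
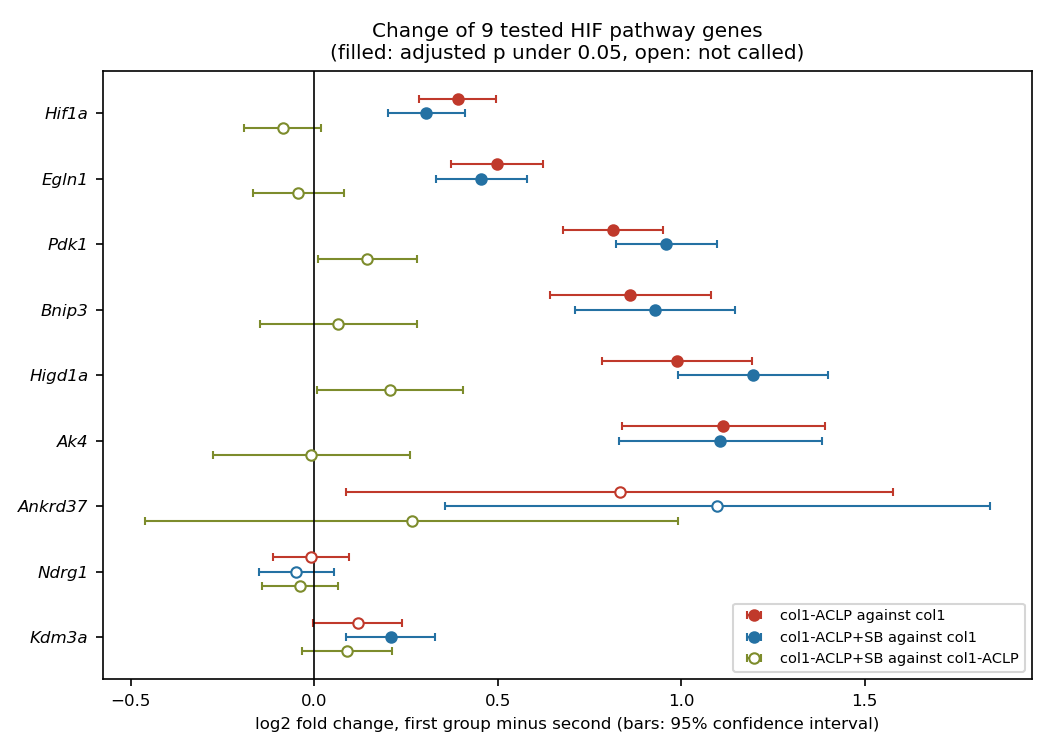
Log2 fold change of the 9 tested genes in 3 comparisons, with 95% confidence intervals from the edgeR fit, where filled points had an adjusted p under 0.05 and open points did not. In both comparisons with col1 the points of Hif1a, Egln1, Pdk1, Bnip3, Higd1a and Ak4 are filled and to the right of 0, and all points of col1-ACLP+SB against col1-ACLP are open.

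Kdm3a, on chromosome 6, encodes a histone demethylase of H3K9 methyl marks. Its libraries had 89.7, 86.2, 92.8 and 82.5 CPM in the col1 group, 94.7, 101, 89.6 and 96.0 CPM in col1-ACLP, and 107, 95.2, 96.1 and 107 CPM in col1-ACLP+SB. The col1-ACLP libraries overlapped col1, and the col1-ACLP+SB libraries lay just above it. Kdm3a had a log2 fold change of 0.12 on col1-ACLP (SE 0.0590, adjusted p = 0.189) and 0.21 on col1-ACLP+SB (SE 0.0588, adjusted p = 0.0235). That call was lost when col1 replicate 2 (0.20, adjusted p = 0.0536), col1 replicate 4 (0.18, adjusted p = 0.0967), col1-ACLP+SB replicate 1 (0.18, adjusted p = 0.0972) or col1-ACLP+SB replicate 4 (0.18, adjusted p = 0.0900) was left out in the same edgeR test. The related demethylase genes Kdm3b and Jmjd1c did not pass the test on col1-ACLP.

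Ankrd37, on chromosome 8, encodes an ankyrin repeat protein and had few reads, from 30 to 133 per library. It had 0.809, 2.94, 1.64 and 0.697 CPM in the col1 group, 3.14, 2.49, 1.67 and 3.51 CPM in col1-ACLP, and 3.79, 3.52, 2.56 and 3.14 CPM in col1-ACLP+SB. The col1 libraries were the most spread, and col1 replicate 2 lay within the range of both other groups. The log2 fold change was 0.83 on col1-ACLP (SE 0.361, adjusted p = 0.123) and 1.10 on col1-ACLP+SB (SE 0.360, adjusted p = 0.0568), and neither passed the test. Without col1 replicate 2 it was 1.38 (adjusted p = 0.00480) and 1.64 (adjusted p = 0.00175) in the same edgeR test. Ankrd37 overlaps Ufsp2 on the other strand by 57 bases, and Ufsp2 had 28.8 to 45.3 CPM with no call in any comparison. Lrp2bp, also on the other strand, overlaps it by 6405 bases and had at most 30 reads in a library, again with no call.

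Ndrg1, on chromosome 15, encodes a cytoplasmic stress-response protein and is a HIF target in many cell types. It had 177, 167, 175 and 187 CPM in the col1 group, 178, 171, 181 and 173 CPM in col1-ACLP, and 171, 160, 180 and 172 CPM in col1-ACLP+SB. The 3 groups overlapped. The log2 fold change was -0.0089 on col1-ACLP (95% interval -0.11 to 0.094) and -0.048 on col1-ACLP+SB (-0.15 to 0.055), so that the intervals did not reach the size seen for Hif1a in either direction.

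Adding the ALK5 inhibitor to cells on ACLP changed none of the 9 tested genes at the threshold in edgeR. In col1-ACLP+SB against col1-ACLP 0 genes were higher and 0 lower, where 0.571% and 0.905% of all genes were, and all 9 genes overlapped between the groups. At an unadjusted p under 0.05 in the same edgeR test there were 2 of the 9 genes, beside 2111 of all 16465 genes tested. They were Pdk1 (log2 fold change 0.15, 95% interval 0.010 to 0.28, adjusted p = 0.337) and Higd1a (0.21, interval 0.0077 to 0.40, adjusted p = 0.359), both higher with the inhibitor. For the other 4 genes that rose on both ACLP groups the difference was -0.086 for Hif1a (interval -0.19 to 0.018), -0.043 for Egln1 (-0.17 to 0.081), 0.066 for Bnip3 (-0.15 to 0.28) and -0.0084 for Ak4 (-0.28 to 0.26). The 6 genes were those called higher in both comparisons with col1, which shuts out a loss of the whole rise by selection. These intervals therefore cannot decide whether the rise depends on ALK5. They do not show that the groups were alike, and for Ankrd37 the interval of -0.46 to 0.99 leaves a wide range.

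In the levels divided by gene length (FPKM, the TMM-scaled CPM per kilobase of the length column), Hif1a was highest on col1 at 31.5 ± 1.31, then Ndrg1 at 26.8 ± 1.25, Egln1 at 17.2 ± 0.941, Kdm3a at 10.7 ± 0.542, Bnip3 at 6.34 ± 0.846, Pdk1 at 5.19 ± 0.345, Higd1a at 4.67 ± 0.610, Ak4 at 1.55 ± 0.323, Ankrd37 at 0.988 ± 0.672 and Egln3 at 0.0087 ± 0.0175 (SD, n = 4). The neighbours Pdk1 and Higd1a, and Ak4 and Ankrd37, overlapped between libraries, and the other neighbours did not. On col1-ACLP the order was the same except that Higd1a (9.26 ± 0.726) came before Pdk1 (9.12 ± 0.268), a pair that still overlapped, and Bnip3 (11.5 ± 1.59) overlapped Kdm3a (11.6 ± 0.566).

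All libraries above all col1 libraries, a count that needs no model, held for 6 genes in col1-ACLP and for 7 with the inhibitor added, against 10.9% and 6.69% of all tested genes. After the group means were removed, 17 of the 36 pairs of the 9 tested genes had a positive correlation over the 12 libraries, with a range of -0.70 to 0.70 and a median of -0.044. This is given as a description. Pairs of other genes were not examined, and whether the genes vary together within groups was not tested.

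The rest of the pathway held calls in both directions. Over all genes tested, 9.52% were higher and 8.41% lower on col1-ACLP, and 4.60% and 4.54% on col1-ACLP+SB. Of 39 tested genes in a list of other HIF targets, 15 rose and 8 fell on col1-ACLP, and 14 rose and 5 fell on col1-ACLP+SB, with medians of 0.23 and 0.21. Those that rose beyond 0.58 on col1-ACLP included Vldlr, a lipoprotein receptor (log2 fold change 1.02), Ero1a, an oxidase of protein folding (0.89), P4ha1, a collagen prolyl hydroxylase subunit (0.87), Stbd1, a glycogen-binding protein (0.85), Bhlhe40, a transcriptional repressor (0.73), and Fam162a, a mitochondrial protein (0.73). Sap30, a subunit of a histone deacetylase complex, also rose (0.97, adjusted p = 0.0404) at a mean of only 2.70 CPM. With the inhibitor added, Stbd1 (0.47, adjusted p = 0.221) and Sap30 (0.59, adjusted p = 0.341) did not pass the test against col1, and the other 5 of these genes were again higher. Those that fell beyond 0.58 on col1-ACLP were Car9, a carbonic anhydrase and widely used marker of hypoxia (-1.14), Angptl4, a lipase inhibitor (-0.83), and Insig2, a regulator of sterol synthesis (-0.75). Car9 went from 16.2 ± 1.26 CPM in col1 to 7.33 ± 1.23 in col1-ACLP, and had 10.5 ± 1.29 CPM with the inhibitor added. Between the ACLP groups, Ero1a was the 1 gene of the list that passed the test (log2 fold change -0.23 with the inhibitor against without it, edgeR adjusted p = 0.0404). Car9 (0.52, adjusted p = 0.0503), Vldlr (-0.22, adjusted p = 0.0590) and Angptl4 (0.30, adjusted p = 0.0821) did not pass it in the same comparison, and the libraries of both groups did not overlap for Vldlr and Angptl4.

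Of 20 glycolysis genes, 13 rose and 0 fell in both comparisons with col1, with medians of 0.57 and 0.62, where 9.52% and 4.60% of all genes were higher. The largest on col1-ACLP+SB were Pfkl (log2 fold change 1.21), Hk2 (0.97) and Gapdh (0.92), and the others beyond 0.58 were Pgk1, Ldha, Eno1, Pkm, Tpi1, Pgam1 and Aldoa. Gapdh averaged only 20.1 CPM on col1, and 88.6% of its transcript has near-identical copies elsewhere in the genome, so its count is uncertain. Aldoa has more than 1 identifier in the table and the more abundant one was used.

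**Figure D4:**
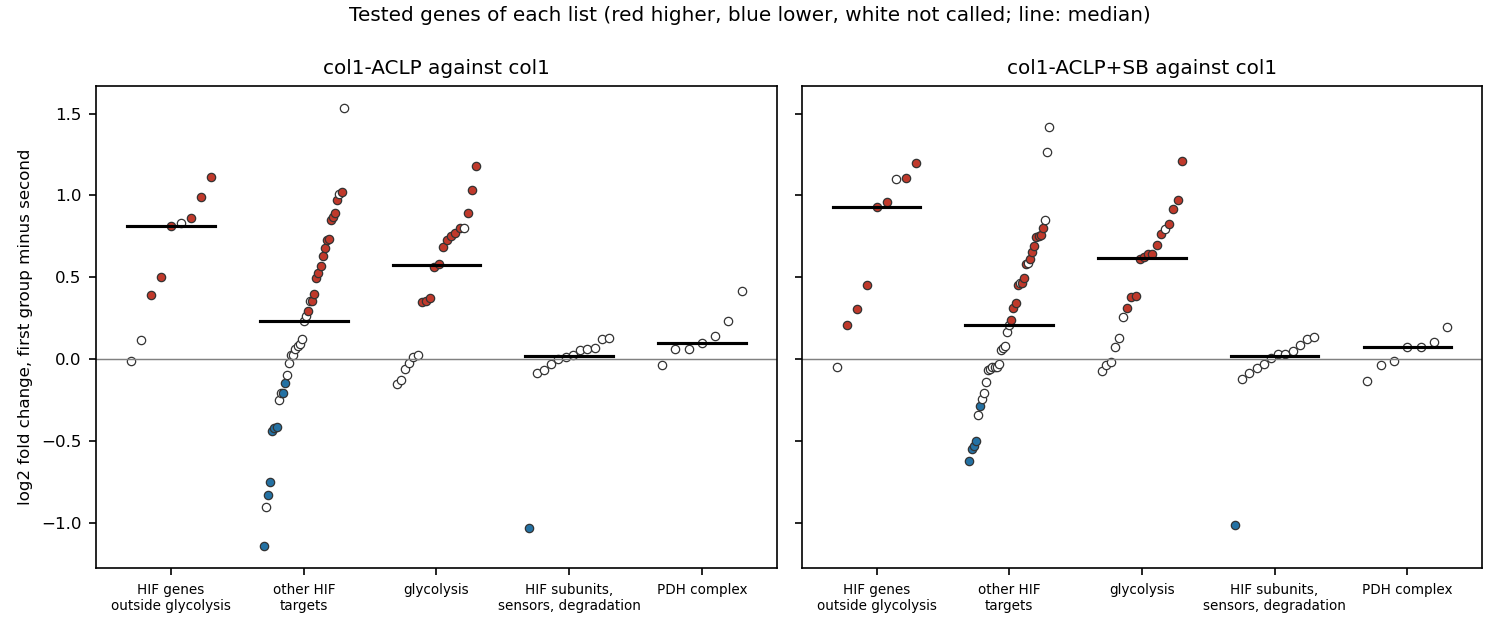
Log2 fold change of each tested gene of 5 lists in col1-ACLP against col1 (left) and col1-ACLP+SB against col1 (right), with genes sorted within a list, red points higher and blue points lower at an adjusted p under 0.05, white points not called and a line at the list's median. All called points of the HIF genes outside glycolysis and of the glycolysis genes are above 0, the other HIF targets have called points on both sides, and Epas1 is the single blue point among the subunits, sensors and degradation genes.

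The 10 genes outside the list most like the mean profile of the 9 tested genes over the 12 libraries (Pearson r of z-scored log2 CPM, among 12947 genes with a mean of at least 1 CPM) were Ldha (0.98), Pgk1, Itgbl1, P4ha1, Lrp5, Slc40a1, Aldoa, Rflnb, Crabp2 and Pgam1 (0.97). The mean profile lay between -1.17 and -0.91 in the 4 col1 libraries and between 0.34 and 0.67 in the 8 libraries with ACLP, so that r was taken over libraries in separate clusters, and it is given as a description with no test.

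Cell cycle genes also differed between the groups. The 10 cell cycle genes summed to 172 to 196 CPM on col1, 259 to 286 on col1-ACLP and 226 to 244 on col1-ACLP+SB. Against col1, 8 of 10 and 4 of 10 were called higher, where 9.52% and 4.60% of all genes were. Mitochondrially encoded genes took 2.39% to 2.98%, 2.00% to 2.21% and 2.1% to 2.88% of the reads in the same order of groups, so that col1-ACLP lay below col1 while col1-ACLP+SB overlapped both. The part of these measures in the results was not tested. The mesenchymal markers ranged on col1 from 11896 CPM for Col1a1 through means of 28.2 CPM for Eng and library values of 17.9 to 24.1 CPM for Thy1 to a mean of 0.274 CPM for Nt5e, which was near 0. Their sum ran from 33035 to 34219 CPM on col1, 43137 to 52074 on col1-ACLP and 39748 to 45382 on col1-ACLP+SB. From col1 to col1-ACLP the mean of Col1a1 went from 11896 to 20950 CPM and that of Col1a2 from 7302 to 11486. Those of Vim (5209 to 4900 CPM) and Pdgfrb (483 to 437 CPM) went down. In both comparisons with col1 the edgeR test called 2 of the 8 markers higher and 1 lower, with 5 not called. The median log2 fold change of the 8 was 0.033 and 0.020. Markers of epithelial, endothelial, immune and fat cells summed to at most 4.04, 11.5, 0.939 and 2.27 CPM in any library, with Epcam and 2 of 5 immune markers at 0 throughout. Among the epithelial, endothelial, immune and fat cell markers the edgeR test called Fabp4, a fatty acid-binding protein of fat cells, lower with ACLP and the inhibitor than on col1 (0.436 against 1.73 CPM, log2 fold change -1.97, adjusted p = 0.0133). It also called Tek, an endothelial receptor, lower with the inhibitor than without it (4.90 against 8.87 CPM, log2 fold change -0.86, adjusted p = 0.0116). Library totals were 32264826 to 42543707 reads on col1, 29246154 to 36322113 on col1-ACLP and 29995224 to 52201922 on col1-ACLP+SB.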

How the data were processed

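The table that the authors deposited holds raw read counts for each gene and library, not normalized, in 12 libraries. By their methods, paired-end reads were mapped with HISAT2 to GRCm39, while the labels name mm10, and the coordinates in the table match GRCm39. The counting tool and its handling of strand and of reads with several places are not given in the sources used here.

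Tests used edgeR 4.0.16 in R 4.3.3 (filterByExpr, TMM, glmQLFit and glmQLFTest, group as the only term, all 12 libraries in 1 fit) and adjusted by Benjamini-Hochberg over the 16465 genes tested. Replicates differed by more than sampling noise in every group, at a chi-square of 7.22 to 19.5 per degree of freedom. The common dispersion over all tested genes had a square root of 0.153. Single genes can have a smaller spread, as Bnip3 on col1-ACLP+SB (SD 3.85% of the mean), and counting error can then be a larger part of it. Relative to the level, counting error is largest for Ankrd37 and Egln3, which had the fewest reads.

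All 10 genes were to be named, together with the genes of each other list past an adjusted p of 0.05 and a log2 fold change of 0.58 (at most 10 per list) and the 10 genes most alike in profile. Other genes named, such as paralogues and parts of the HIF machinery, were picked from these lists after their values were seen. The 10 genes and the lists were chosen with earlier results of these data known. Alternatives in normalization, filter, tool, replicate block, threshold and each library left out were run with DESeq2 1.42.0 and limma 3.58.1 among them. The procedure was tested on simulated data. An initial bar on the share of changed genes recovered was missed and was replaced, after that run, by bars on bias, sign and false calls, which it met. The procedure itself was not altered.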

Additional observations from a re-analysis of the deposited data

How the results depend on the processing

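Over 20 alternatives in each of 3 comparisons, 522 of 540 values for the 9 tested genes kept their direction and their side of the threshold. Hif1a, Egln1, Pdk1, Bnip3, Higd1a and Ak4 were called higher against col1 in both comparisons under all 20. The count of genes higher in col1-ACLP+SB against col1 went from 7 to 4 when a log2 fold change beyond 0.58 was also required, which drops Hif1a, Egln1 and Kdm3a by construction. With each library left out in turn that count ran from 6 to 7, and on col1-ACLP from 6 to 7. Kdm3a on col1-ACLP+SB stayed called in 15 of 20 alternatives and missed with library size alone (adjusted p = 0.0593). Ankrd37 on col1-ACLP+SB was called in 4 of 20, with DESeq2 (0.0276), limma-voom (0.0190), no filter (0.0183) and without col1 replicate 2 (0.00175), and on col1-ACLP only in the last. Values near 0 changed sign. Ak4 in col1-ACLP+SB against col1-ACLP was 0.017 with library size alone and ran from -0.052 to 0.038 with single libraries left out, and Ndrg1 on col1-ACLP ran from -0.033 to 0.022. The cause was not tested. Same-numbered libraries did not deviate together (r between -0.037 and 0.036), and replicate numbers were therefore not taken as pairs. With the replicate block 6 and 7 genes were higher in the comparisons with col1, as without it. Depth limits Egln3.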

Other observations

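The genes whose profile ran most opposite to the mean of the 9 tested HIF pathway genes over the 12 libraries were Bicc1, an RNA-binding protein (Pearson r = -0.98), Plcb4, a phospholipase C (-0.97), Clec3b, which encodes tetranectin (-0.97), Plxna2, a semaphorin receptor (-0.97), and Akap12, a scaffold of protein kinase A (-0.96). As with the most alike genes, r was taken over col1 and ACLP libraries that lie in separate clusters of the profile, and is given as a description with no test.

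Among 15 tested paralogues of the 10 genes, 2 were higher on col1-ACLP than on col1, Ak3 and Pdk3, and 1 was lower, Pdk4. Over all genes tested, 9.52% were higher and 8.41% lower in that comparison. On col1-ACLP+SB 1 was higher, Pdk3, and 1 lower, Pdk4, beside 4.60% and 4.54% of all genes. The list's median log2 fold change was 0.022 and -0.0053.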
